A study of Mus musculus with 12 samples.

Results

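A set of 30 mouse genes of mitosis and DNA replication was followed across 12 samples of a fibroblast reprogramming study. They are 16 genes of chromosome segregation and mitotic entry and 14 genes of the replication fork and its nucleotide supply, which makes 30 of the 25411 genes measured. They were chosen by name for their function. All 30 were found on the arrays through the deposited gene name or the current symbol of the probe's accession, with 46 of 41174 gene probes. Cdk1 was deposited as Cdc2a, Cdc45 as Cdc45l and Gins2 as 4833427B12Rik.

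The samples were mouse embryonic stem (ES) cells of 129/Ola origin, mouse embryonic fibroblasts (MEF), MEF grown as spheres after transduction with Bmi1 (labelled neural stem cell-like) and 9 induced pluripotent stem (iPS) lines. All 9 lines had been given Oct4. Of these, 2 lines combined Bmi1 with Oct4 (BOiPS), and the other MEF-derived lines followed exposure to a hedgehog pathway agonist, with 1 line for the protein Shh (SOiPS), 2 for oxysterols (OOiPS) and 2 for purmorphamine (POiPS). A further 2 lines used oxysterol and Oct4 on adult tail-tip fibroblasts (OOiPS-TTF). Each sample was hybridised once to a one-colour (Cy3) Agilent array, so ES, MEF, the spheres and the Shh line are 1 array each. Nothing in the labels says whether 2 lines of a group came from separate fibroblast cultures, so p-values measure only the spread between these samples.

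Replication begins when the MCM complex, a ring of related subunits, is loaded on DNA by the origin recognition complex with Cdc6, and is turned into an active helicase by Cdc45 and the GINS complex. Mitosis follows when cyclin B and Cdk1 are activated, and the spindle checkpoint holds chromosome separation back until every kinetochore is attached. Transcripts of both sets come and go with the cell cycle, and mouse pluripotent cells are known for fast cycles with a short first gap phase. In RNA from a whole culture, fewer cycling cells and less of a transcript per cycling cell cannot be told apart.

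Levels below are log2 of the deposited processed signal minus the log2 of the array's 75th percentile, so 0 is the 75th percentile and each unit is a doubling. They rank samples for 1 probe and say nothing about one gene against another. The 75th percentile ran from 1340 to 2156 signal units, and 58.4% (the Shh line) to 80.0% (the spheres) of spots were well above background. The 10 pluripotency genes checked had a summed linear level of 160.3 to 228 times the 75th percentile in the lines and 190 in ES, against 1.44 in MEF and 0.878 in the spheres. The 9 neural stem genes summed to 3.85 in the spheres and 5.17 in MEF, so the spheres did not stand above MEF in the genes of their label. The 12 fibroblast genes summed to 144 in MEF, 54.7 in the spheres and 4.38 in ES. Among the lines that sum was 38.8 in tail-tip line 2, 27.3 in purmorphamine line 2, 11.2 in oxysterol line 1 and 3.61 to 5.33 in the other 6. The arrays lay on 3 slides: ES, MEF and both Bmi1-Oct4 lines shared slide 1, the Shh line, both oxysterol lines and purmorphamine line 2 slide 2, and purmorphamine line 1, both tail-tip lines and the spheres slide 3.

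The first question was how these genes differed between the iPS lines and the fibroblasts. Of the 30 genes, 7 were higher in the 9 lines than in MEF at an adjusted p under 0.05 (limma, Benjamini-Hochberg over all genes) and none was lower. Over all genes tested 8.19% passed as higher and 2.74% as lower. The 7 were the checkpoint genes Bub1b, Bub1 and Ttk, the spindle motor Kif11, cyclin B1 (Ccnb1) and the helicase subunits Mcm5 and Mcm2. MEF lay below every one of the 9 lines in 23 of the 30 genes, against 31.5% of all genes, and was the lowest of all 12 arrays in 20, against 25.7%. The median difference over the 30 was 1.38 log2 units, 1.38 over the mitosis genes and 1.32 over the replication genes.

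The median over all genes was itself 0.44 log2 units higher in the lines than in MEF, and 0.13 after quantile normalization. Relative to it the 30 genes were higher by a median of 0.94 log2 units, and by 1.15 after quantile normalization. Of the 30, 23 lay above the median of all genes. The sign was positive for 28 of 30 genes, against 61.9% of all genes. It was positive for 26 of the 30 with normexp background correction and for 28 after quantile normalization. Among all calls 74.9% were higher, and 62.6% with normexp or 62.7% after quantile normalization.

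The summed fibroblast level moved with this contrast, and its part in the result was not tested. MEF lay above every line in 10 of the 12 fibroblast genes. The exceptions were the collagen genes Col1a1, at 0.68 in MEF and -0.66 to 0.86 over the lines, and Col3a1, at -0.33 and -3.99 to -0.29. All 12 were well above background in MEF and 4 to 10 of them in a line. Each of the 12 had a value on every array, including spots that were not well above background. Tail-tip line 2 and purmorphamine line 2 had the highest fibroblast sums of the lines. Without them 5 of the 30 genes passed as higher, against 1730 of 25398 genes, and the median over the 30 was 1.44. Both Bmi1-Oct4 lines, on the same slide as MEF, exceeded it in 26 of 30 genes, against 47.5% of all genes. With slide as a fixed block 3 genes of the 30 passed as higher (Bub1b, Bub1 and Mcm5), against 1325 of all 25399 genes. The count was 12 without oxysterol line 1 (2493 of all genes), 13 with normexp (1843) and 14 when the variances followed signal intensity (2319). In the reported fit 2079 of all genes passed as higher.

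**Figure D1:**
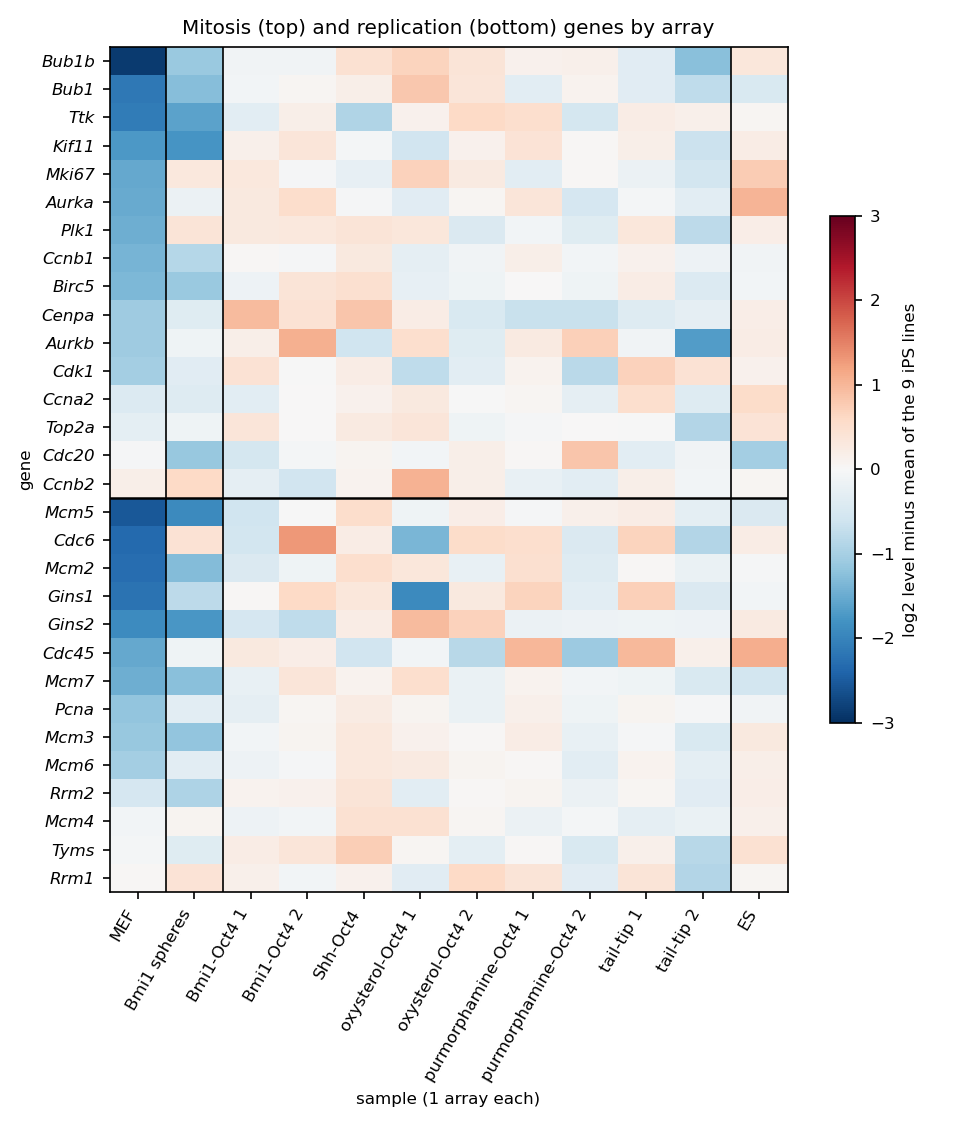
Colour gives each gene's log2 level minus its mean over the 9 iPS lines, 1 column per array, with mitosis genes above the black line and replication genes below it, each block ordered by the difference from MEF. The MEF column is blue for most genes and pale at the foot of both blocks, the sphere column is mixed, and the ES column is close to the lines.

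**Figure D2:**
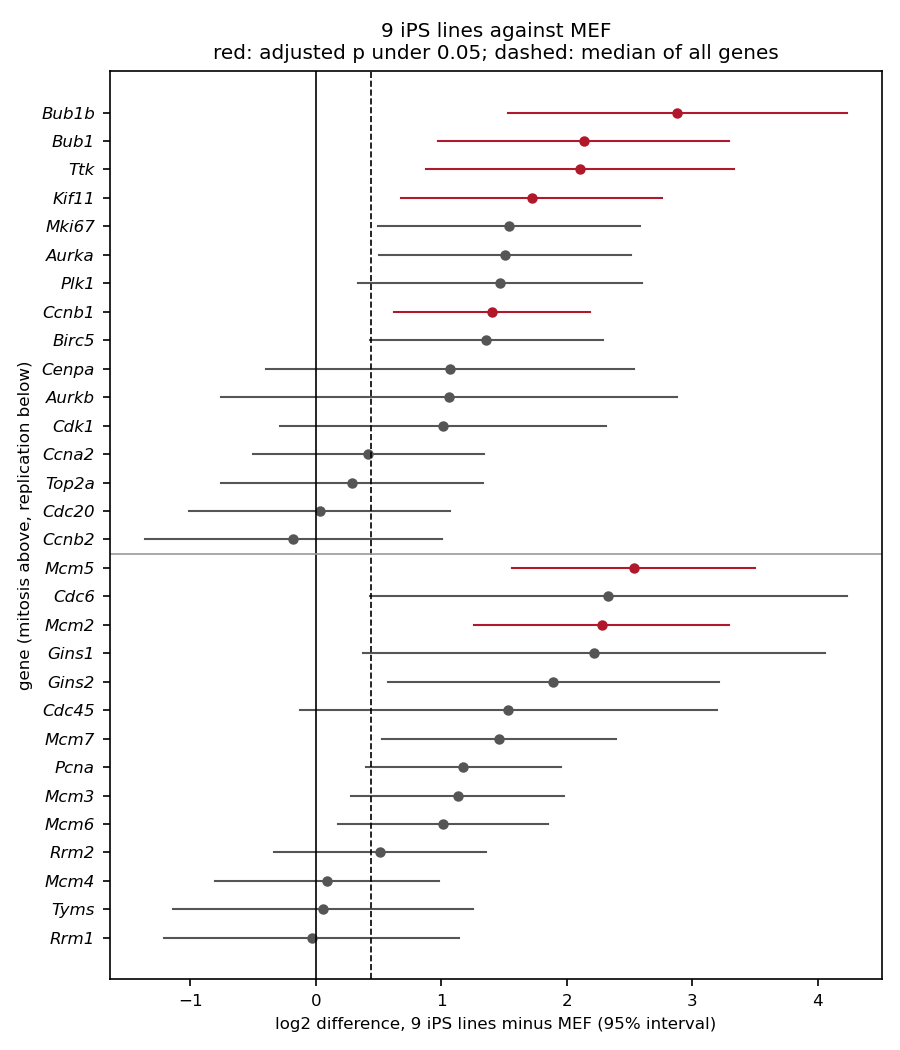
Points give the log2 difference of the 9 iPS lines from MEF with its 95% interval, in red for the 7 genes that passed, and the dashed line marks the median of all genes, 0.44. The lower ends of the intervals of Bub1b, Mcm5 and Mcm2 lie furthest to the right. Cdc6 and Bub1b have the highest upper ends, followed by Gins1, and Ccnb2, Rrm1, Cdc20 and Tyms lie near 0.

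Among the mitosis genes, 5 of 16 passed, and the checkpoint proteins stood first. Bub1b, a kinase-like part of the mitotic checkpoint complex, read -0.93 in MEF, 0.85 in the spheres and 2.30 in ES, and its 9 lines ran from 0.70 through a median of 2.07 to 2.61. No line came near MEF, but tail-tip line 2 fell below the sphere sample. The lines exceeded MEF by 2.88 log2 units (SE 0.61, 7.36-fold, adjusted p = 0.0138).
Bub1, the kinase that builds the checkpoint platform at kinetochores, read -0.12 in MEF, 0.74 in the spheres, 1.55 in ES and 1.26, 2.07 and 2.83 as the lowest, median and highest line. All 9 lines lay above both MEF and the spheres, and ES lay inside their range. The difference from MEF was 2.13 (SE 0.52, 4.39-fold, adjusted p = 0.0269). Both calls held when any single line was left out. Their probes are shown because these are the mitosis genes whose calls held under every alternative except the fit within slide 1. In the mm7 build used by the array design both lie on chromosome 2, Bub1b at chr2:118381943-118382002 on the plus strand and Bub1 at chr2:127542105-127542164 on the minus strand, and exon annotation of that build was not used here.
Bub1b: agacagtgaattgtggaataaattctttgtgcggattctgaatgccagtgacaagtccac
Bub1: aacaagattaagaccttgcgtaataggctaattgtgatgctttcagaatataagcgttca

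Ttk, the Mps1 kinase that starts the checkpoint, was a dim probe. It read -5.24 in MEF, -4.76 in the spheres, -3.09 in ES and -4.04, -2.995 and -2.54 as the lowest, median and highest line. The Shh line gave the lowest line value and was the 1 array on which the spot was not well above background. The difference from MEF was 2.10 (SE 0.55, adjusted p = 0.0360), and it no longer passed without Bmi1-Oct4 line 2, purmorphamine line 1, tail-tip line 1 or tail-tip line 2. Adjusted p over all alternatives for Ttk ran from 0.0189 to 0.209.

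Kif11, the kinesin that pushes spindle poles apart, read 1.63 in MEF and 1.58 in the spheres, close together, against 3.56 in ES and 2.71, 3.49 and 3.76 over the lines. Every line exceeded both MEF and the spheres by more than 1 unit. The difference from MEF was 1.72 (SE 0.47, adjusted p = 0.0413) and was lost in 7 of the 9 fits that left out 1 line, all except those without oxysterol line 1 or tail-tip line 2. Adjusted p for Kif11 ran from 0.0118 to 0.194 over all alternatives. Ccnb1, the cyclin that drives entry into mitosis, read 2.49 in MEF, 3.03 in the spheres, 3.795 in ES and 3.63, 3.87 and 4.17 over the lines, whose SD of 0.17 was the second smallest of the 30. The difference was 1.40 (SE 0.35, adjusted p = 0.0301), and it passed whichever line was left out.

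**Figure D3:**
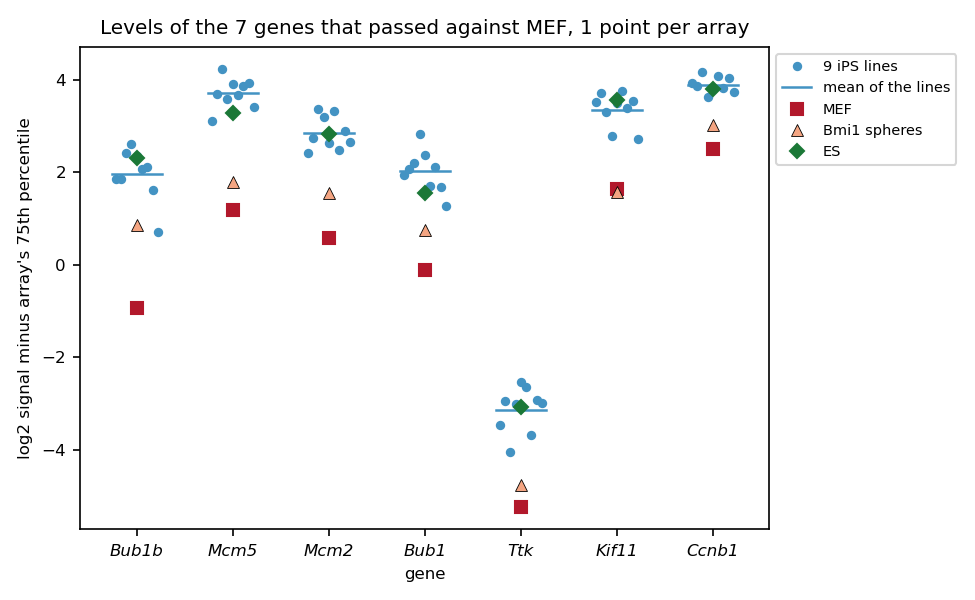
Levels of the 7 genes that passed against MEF are plotted per array, log2 signal minus the array's 75th percentile, with blue points for the 9 lines, a bar for their mean, and separate symbols for MEF, the spheres and ES. MEF lies below all 9 lines in every gene, the spheres lie between MEF and most lines in all but Kif11, and heights cannot be compared between genes.

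Other mitosis genes showed differences of similar size that did not pass. The spindle pole kinase Aurka (1.51, adjusted p = 0.0595), the proliferation marker Mki67 (1.54, 0.0630), the chromosomal passenger Birc5 (survivin; 1.36, 0.0648) and the mitotic kinase Plk1 (1.47, 0.0949) all had MEF below every line. Aurka read -1.17 in MEF against -0.16 to 0.88 over the lines, and Mki67 0.97 against 1.96 to 3.21. Birc5 read 2.75 against 3.69 to 4.59, and Plk1 1.07 against 1.75 to 2.92. Each 95% interval lay above 0, yet with all genes adjusted for together none passed. The mitotic kinase Cdk1 (1.01), the centromeric histone Cenpa (1.07) and the passenger kinase Aurkb (1.06) had wide intervals that included 0. In Aurkb tail-tip line 2 read -3.26, below MEF at -2.64, while the other 8 lines ran from -2.17 to -0.52.

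At the other end, 4 mitosis genes barely differed on the probe used. The lines minus MEF came to 0.42 for Ccna2 (cyclin A2, 95% interval -0.50 to 1.34), 0.29 for Top2a (topoisomerase II alpha, -0.75 to 1.33), 0.03 for Cdc20 (the activator of the anaphase-promoting complex, -1.01 to 1.07) and -0.18 for Ccnb2 (cyclin B2, -1.36 to 1.01). Cdc20 read 1.05 in MEF, inside the line range of 0.55 to 1.91, and lower in ES (0.07) and in the spheres (-0.05). Ccnb2 read 0.77 in MEF against a line median of 0.50. All 4 intervals still included a doubling in the lines.

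Among the replication genes, 2 of 14 passed, and both were subunits of the MCM ring. Mcm5 read 1.17 in MEF, 1.79 in the spheres, 3.27 in ES and 3.096, 3.68 and 4.23 as the lowest, median and highest line. The lines and ES together stood more than 1 unit above MEF and the spheres. The difference from MEF was 2.53 (SE 0.44, 5.79-fold, adjusted p = 0.00475), the smallest adjusted p of the 30. Mcm2 read 0.57 in MEF, 1.55 in the spheres, 2.82 in ES and 2.42, 2.73 and 3.36 over the lines. Again no line overlapped MEF or the spheres. The difference was 2.28 (SE 0.46, 4.84-fold, adjusted p = 0.0110), and neither call depended on any single line.

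The other MCM subunits did not pass, although all are parts of the same ring. Mcm7 exceeded MEF by 1.46 (adjusted p = 0.0513), Mcm3 by 1.13 (0.0871) and Mcm6 by 1.01 (0.114), with MEF below every line in all 3 genes. Mcm7 read 0.85 in MEF and 1.85 to 2.82 over the lines, Mcm3 3.34 and 4.01 to 4.78, and Mcm6 3.32 and 4.02 to 4.66. Mcm4 differed by 0.09 (95% interval -0.80 to 0.98), with MEF at 4.99 and the lines from 4.80 to 5.53. Its spot was saturated on 7 of the 12 arrays, among them 5 of the lines but not MEF, which bounds what that probe could show.

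The factors that load and start the helicase had large but variable differences. Cdc6, which loads the ring, read -4.07 in MEF, -1.31 in the spheres, -1.52 in ES and -3.12, -1.52 and -0.44 over the lines, a difference of 2.33 (SE 0.86, adjusted p = 0.111). The GINS subunit Gins1 read -0.06 in MEF, 1.36 in the spheres, 2.06 in ES and 0.24, 2.46 and 2.87 over the lines (2.22, SE 0.83, adjusted p = 0.116). Gins2 read -2.40 in MEF, -2.25 in the spheres, -0.23 in ES and -1.26, -0.65 and 0.45 over the lines (1.89, SE 0.59, adjusted p = 0.0686). MEF was the lowest array for each of these genes, and the lines spread over 1.71 to 2.68 units. Cdc45, the helicase cofactor, read -5.03 in MEF, -2.42 in ES and -4.59 to -2.49 over the lines (1.53, adjusted p = 0.212), with 2 line spots not well above background. Pcna, the sliding clamp of the polymerases, had the tightest lines of the 30, from 2.71 to 3.21 (SD 0.17), and stood 1.18 above its MEF value of 1.79 (adjusted p = 0.0569).

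For the genes of deoxynucleotide supply every interval included 0. Rrm2, the regulated subunit of ribonucleotide reductase, exceeded MEF by 0.51 (95% interval -0.33 to 1.36), with 2 lines saturated. On the probes used, the large subunit Rrm1 differed by -0.03 (-1.21 to 1.14) and thymidylate synthase Tyms by 0.06 (-1.13 to 1.25). MEF read 1.74 for Rrm1 and 2.47 for Tyms, both inside their line ranges of 0.82 to 2.29 and 1.69 to 3.27.

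Several genes had more than 1 probe, and the probes did not give 1 size. Each gene was represented by its brightest probe, and 12 of the 30 had 2 or 3 probes. Of the 38 probes well above background on all 12 arrays, 36 were higher in the lines than in MEF and 29 had MEF below every line. With 1 probe per gene, 61.9% of all genes were higher in the lines and 31.5% had MEF below every line. The share over all probes is not given here. In 7 genes at least 2 probes well above background on all 12 arrays could be set side by side. All of them were higher in the lines, and in 5 of the 7 genes the brightest probe had the smallest difference. For Top2a it gave 0.29, and the other probes gave 2.54 and 2.41. On the first of these MEF read -5.08 and the lines -3.17 to -2.06, with no overlap. Ccnb1 gave 1.40 on the probe used and 2.97 and 3.21 on the others, and Mcm3 gave 1.13 and 2.76. Kif11 gave 1.72, 3.20 and 0.47. When all probes of a gene were averaged 10 of the 30 genes passed as higher, against 2010 of all 25399 genes.

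Cdc6 had probes of opposite direction. The brighter one, at chr11:99030298-99030357 (mm7, plus strand), gave the 2.33 above. The other, at chr11:99032894-99032953, read -1.34 in MEF and -7.07 to -0.18 over the lines, a difference of -1.39, and was well above background on 10 arrays. Both probes carry the deposited name Cdc6, so the direction for Cdc6 rests on the choice of probe. The dimmest of the 3 Tyms probes, well above background on 10 arrays, read -4.42 in MEF and -5.14 to -1.43 over the lines, so its lines lay on both sides of MEF. Rrm1 also had a dimmer probe, well above background on only 5 arrays. It read -8.98 in MEF and -6.77 to -4.61 over the lines, a difference of 3.15, against -0.03 on the probe used. That MEF value lay below the lowest signal well above background on the MEF array (-6.85).

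**Figure D4:**
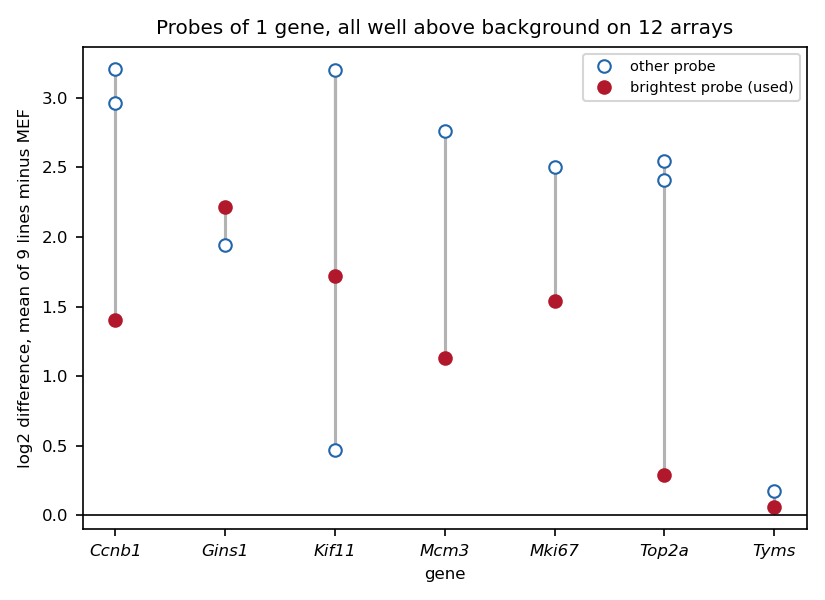
Each point is the mean of the 9 lines minus MEF (log2) for 1 probe, for the 7 genes with at least 2 probes well above background on all 12 arrays, with the brightest probe filled. All points lie above 0, and the filled point is the lowest in Ccnb1, Mcm3, Mki67, Top2a and Tyms but not in Gins1 or Kif11.

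The promoters of these genes were read because the genes are grouped by the time at which they act in the cell cycle. Windows of 250 bases before to 50 after the start site were available from RefSeq (GRCm38.p6) for 25 of the 30 genes, 26 windows in all since Mcm7 has a pair. Aurkb, Ccna2, Gins1, Gins2 and Mcm4 had no entry in the table used. On both strands, with overlapping matches counted, the CCAAT box was present in 23 of 26 windows, or 88.5%, against 37.4% of 32851 windows of all genes. The hexamer of the cell cycle genes homology region, known as CHR (TTTGAA), was in 11 of 14 mitosis windows (78.6%) and 2 of 12 replication windows (16.7%), against 17.9% of all. An E2F-type 7-mer (TTTCCCG, the variant TTTGGCG, the variant TTTCGCG or the variant TTTGCCG) was in 2 of 14 mitosis windows (14.3%) and 5 of 12 replication windows (41.7%), against 6.7% of all. Matches were also present in genes that did not pass against MEF: Cdc20 and Ccnb2 hold both CCAAT and CHR matches, and Rrm1 holds a pair of CCAAT boxes. A match is a run of letters and not a shown binding site.

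The windows of the 3 genes with the largest differences that passed follow on the gene's strand, with matches to these motifs in capitals. Bub1b (chr2:118597961-118598260, plus strand) holds a CCAAT box on the opposite strand and 1 CHR hexamer starting 41 bases into the transcript. Mcm5 (chr8:75109259-75109558, plus strand) holds 3 CCAAT boxes and a pair of overlapping E2F-type 7-mers. Mcm2 (chr6:88898731-88899030, minus strand) holds 1 CCAAT box on the opposite strand and 1 CHR hexamer.
Bub1b: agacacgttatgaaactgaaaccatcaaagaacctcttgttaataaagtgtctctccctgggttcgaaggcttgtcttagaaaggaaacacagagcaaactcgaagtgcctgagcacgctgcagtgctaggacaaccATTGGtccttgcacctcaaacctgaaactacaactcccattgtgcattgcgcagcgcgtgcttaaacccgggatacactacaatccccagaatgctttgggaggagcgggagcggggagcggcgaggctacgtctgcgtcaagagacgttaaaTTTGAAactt
Mcm5: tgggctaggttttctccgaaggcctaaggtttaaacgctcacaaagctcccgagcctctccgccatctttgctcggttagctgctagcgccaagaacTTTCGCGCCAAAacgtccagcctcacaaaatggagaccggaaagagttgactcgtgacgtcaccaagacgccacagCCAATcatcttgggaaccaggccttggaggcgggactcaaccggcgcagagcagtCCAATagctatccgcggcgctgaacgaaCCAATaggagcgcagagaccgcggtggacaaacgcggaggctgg
Mcm2: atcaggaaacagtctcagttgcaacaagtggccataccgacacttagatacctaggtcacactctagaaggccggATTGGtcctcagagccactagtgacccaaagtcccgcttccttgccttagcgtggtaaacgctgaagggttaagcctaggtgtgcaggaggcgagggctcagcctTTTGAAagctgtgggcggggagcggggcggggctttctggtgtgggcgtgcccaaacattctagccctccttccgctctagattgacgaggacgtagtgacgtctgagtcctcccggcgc

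The Bmi1 spheres were set against the lines to ask how the genes stood in the Bmi1-transduced sphere culture. Of the 30 genes, 2 were higher in the lines, Mcm5 by 1.92 (SE 0.44, adjusted p = 0.0221) and Kif11 by 1.77 (SE 0.47, adjusted p = 0.0425), and none was lower. That share of 6.67% is near the 5.86% of all genes that passed as higher, with 2.76% lower. The Kif11 call was lost in 7 of the 9 fits that left out 1 line, and with slide as a fixed block neither gene passed. On the other Kif11 probes, well above background on all 12 arrays, the lines differed from the spheres by 2.47 and -0.006. At an unadjusted p under 0.05 there were 12 of the 30, against 22.4% of all genes. The median over the 30 was 0.38, against 0.00 over all genes, and 0.69 with the slide block. On the spheres' own slide, the 3 lines all exceeded the spheres in 17 of 30 genes, against 34.1% of all genes.

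The spheres did not sit evenly between MEF and the lines. In 13 genes they lay below all 9 lines, against 19.9% of all genes, and in 9 of these they also lay above MEF, against 7.07% (Birc5, Bub1, Ccnb1, Gins2, Mcm2, Mcm5, Mcm7, Pcna and Ttk). In the remaining 17 they lay within the line range. For Cdc6 (-1.31), Mki67 (2.82) and Plk1 (2.91) the sphere value was above the line median. For Kif11 (1.58), Mcm3 (3.28), Rrm2 (3.98) and Cdc20 (-0.05) it was the lowest of all 12 arrays on the probe used, below MEF. For Kif11 and Mcm3 that order rests on the choice of probe. On their other probes, well above background on all 12 arrays, the spheres lay above MEF, by 0.73 and 0.48 for Kif11 and by 1.09 for Mcm3.

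Against MEF, 1 array against 1 with no test, 7 genes were at least 2-fold higher in the spheres and 1 was lower. Those were Cdc6 (2.76), Mki67 (1.85), Plk1 (1.85), Bub1b (1.78), Gins1 (1.42), Cdc45 (1.42) and Aurka (1.34), with Cdc20 lower at -1.10. The other Cdc6 probe gave -0.90, the opposite direction. Over all genes 33% were at least 2-fold higher and 17.6% lower, against 23.3% higher here. With the mean of all probes 11 of the 30 were higher (36.7%, against 34.0% of all genes), and with normexp 7 were (23.3%, against 20.3%), so whether the share lay below that of all genes rested on the processing. Against ES, 11 of the 30 were at least 2-fold lower in the spheres, against 21.8% of all genes, and none was higher, against 27.4%. The lowest were Gins2 (-2.02), Kif11 (-1.99) and Ttk (-1.67). The spheres lay on another slide than MEF and ES, so slide and sample cannot be told apart here.

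ES cells were the reference for the lines. No gene of the 30 passed in the lines against ES (limma, smallest adjusted p 0.9999). Over all genes 0.00788% passed as higher and 0.0197% as lower. At an unadjusted p under 0.05 there was 1 gene of 30, against 4.47% of all genes. It was Aurka, which read 1.36 in ES and -0.16 to 0.88 over the lines, a difference of -1.02 (95% interval -2.03 to -0.02, unadjusted p = 0.0462). The largest differences otherwise were Cdc45 at -1.08 (-2.74 to 0.58) and Cdc20 at 1.01 (-0.02 to 2.05). The median over the 30 was -0.19 against 0.03 for all genes, and ES lay inside the line range in 23 genes. It was above all lines in 5, against 8.49% of all genes (Aurka, Ccna2, Cdc45, Mki67 and Top2a), and below them in 2, against 9.65% (Cdc20 and Mcm7). The median half-width of the 95% intervals was 2.06-fold.

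ES against MEF, again 1 array each and on 1 slide, gave 21 of 30 genes at least 2-fold higher and none lower, against 26.7% and 20.6% of all genes. The median was 1.30, against 0.40 over all genes. Bub1b (3.23), Cdc45 (2.61), Cdc6 (2.55) and Aurka (2.53) came first on the probes used, and Cdc20 (-0.98), Ccnb2 (-0.13) and Rrm1 (0.04) last. The other Cdc6 probe gave -2.82, the opposite direction. This comparison shares its MEF array with that of the lines.

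The lines were then compared among themselves. The median SD over the 9 lines was 0.38 log2 units for the 30 genes, 0.76 for all genes and 0.57 for the genes at least as bright as the dimmest of the 30. It was 0.41 for the mitosis genes and 0.34 for the replication genes. Tail-tip line 2 was the lowest line in 14 of the 30 genes, with a median deviation from the line mean of -0.36, and purmorphamine line 2 came next at -0.20. The Shh line was the highest in 11, with a median deviation of 0.23. Tail-tip line 2 and purmorphamine line 2 were also the lines with the highest fibroblast sums, 38.8 and 27.3, with 10 and 9 of the 12 fibroblast genes well above background against 4 to 9 in the other lines. The part of those transcripts in the low values was not tested. Tail-tip line 1, with a fibroblast sum of 3.65, had a median deviation of 0.09. In Bub1b tail-tip line 2 read 0.70 and line 1 read 1.61, and in Plk1 1.75 and 2.86.

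**Figure D5:**
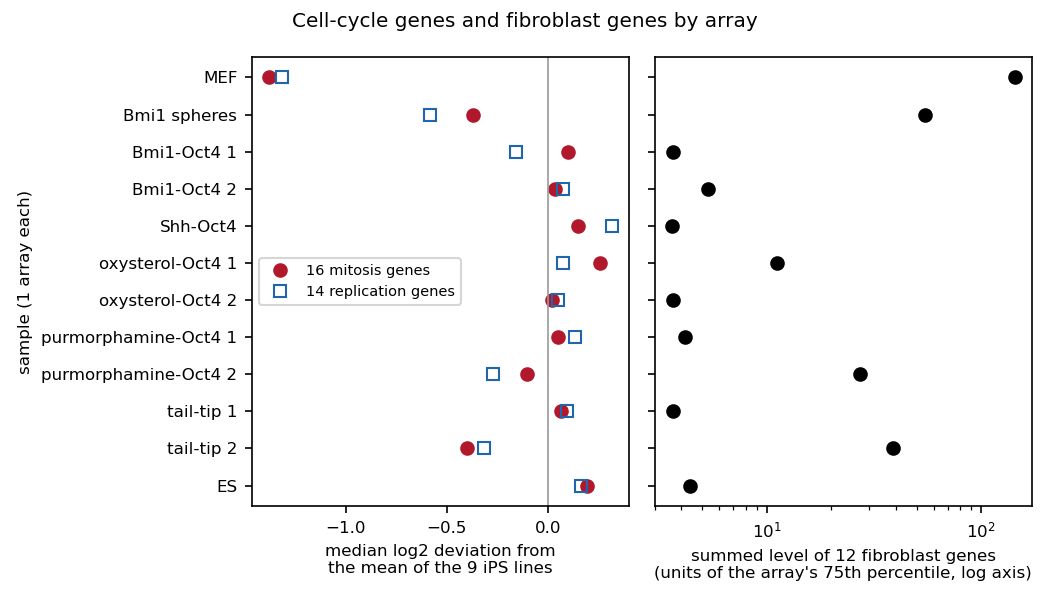
The left panel gives, per array, the median log2 deviation from the mean of the 9 lines for the 16 mitosis genes (filled) and 14 replication genes (open), and the right panel the summed level of the 12 fibroblast genes in units of the array's 75th percentile on a log axis. MEF is lowest on the left (-1.38 and -1.32) and highest on the right (144), followed by the spheres, tail-tip line 2 and purmorphamine line 2 on the right.

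Comparisons between groups of lines found no gene that passed, among the 30 or over all genes (limma). With no filter on dim probes 52 genes passed as higher and 2358 as lower in the Bmi1-Oct4 lines against the MEF-derived agonist lines, none of them among the 30. With the filter, at an unadjusted p under 0.05 the Bmi1-Oct4 lines against the MEF-derived agonist lines gave 1 of the 30 genes, against 9.88% of all genes. Oxysterol against purmorphamine gave 1, against 4.84%, and tail-tip against embryonic oxysterol lines gave 3, against 6.49%. Gins2 was the gene in the first pair of comparisons and 1 of the 3 in the last. It read -1.01 and -1.26 in the Bmi1-Oct4 lines, -0.29 in the Shh line, 0.45 and 0.20 in the oxysterol lines, -0.67 and -0.65 in the purmorphamine lines and -0.64 and -0.66 in the tail-tip lines. The oxysterol lines were the highest and the Bmi1-Oct4 lines the lowest, with no overlap between these groups. The 3 comparisons share the oxysterol lines, and the Bmi1-Oct4 lines lay on a slide of their own among the lines, so slide and agent cannot be told apart.

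The other genes of the tail-tip comparison were Bub1b (-1.32, 95% interval -2.40 to -0.23) and Bub1 (-1.13, -2.14 to -0.12), for which tail-tip line 2 gave the lowest line value. The median over the 30 in that comparison was -0.20 (all genes -0.08), 0.03 without tail-tip line 2 and -0.52 with slide as a block, since these groups lay on different slides. For oxysterol against purmorphamine it was 0.09 (all genes -0.06), -0.14 without purmorphamine line 2 and 0.32 without purmorphamine line 1 or with slide as a block. After quantile normalization of all lines it was -0.0094, so its sign depended on purmorphamine line 2 and on the normalization. The median half-width of the 95% intervals there was 2.14-fold.

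A wider list of 128 other replication and mitosis genes was read in the same way. In the lines against MEF 40 of 128 were higher (31.2%, against 8.19% of all genes) and none lower (2.74% of all genes), with a median of 1.27 (0.44 over all genes). MEF was below every line in 91, or 71.1%, against 31.5% of all genes. The largest were the kinetochore scaffold Knl1 (5.87, adjusted p = 0.0112), the cell cycle transcription factor Mybl2 (4.49, adjusted p = 7.61e-05), cyclin F Ccnf (4.10, adjusted p = 0.000520) and the spindle protein Dlgap5 (4.08). The origin recognition subunit Orc1 was not well above background in MEF and was at least 21.9-fold higher in the lines (adjusted p = 0.00232), the MEF value being raised to the lowest signal well above background on that array. Against the spheres 10 of 128 were higher (7.81%, near the 5.86% of all genes), led by Oip5 of the centromere (3.61), Mybl2 (3.49) and the replication factor Wdhd1 (2.65). Against ES 1 of 128 passed, the separase gene Espl1, which differed by -4.68 log2 units (SE 0.59, adjusted p = 0.0423). That call passed in 7 of 22 alternatives (adjusted p 0.00985 to 0.602) and in 1 of the 9 fits that left out 1 line, the one without Bmi1-Oct4 line 1.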

How the data were processed

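The intensity of each spot was deposited as the processed (background-subtracted) signal of Agilent Feature Extraction 9.5.3.1, per the file headers, with flags for background, saturation and outliers. No other step by the authors is recorded in the labels or headers. Outlier spots were left out, replicate spots of a probe averaged as log2, and the array's 75th percentile subtracted. Probes well above background on at least 1 array were kept, and the brightest stood for its gene. Of 41174 probes, 23082 were named through the accession, 6582 through the symbol, 3073 through a synonym, and 8437 kept the deposited name.

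The lines were compared with MEF, ES and spheres in a limma 3.58.1 fit of 4 classes (8 residual degrees of freedom) and with each other in one of 8 groups (4), in R 4.3.3; the fit was tested on simulated data. For classes of 1 array the spread of the lines was used. Single arrays were compared by 2-fold differences with no test. Clone numbers did not pair samples (correlations -0.16 to 0.24). Alternatives are named in the closing section. All 30 genes are named, of the wider list the largest that passed. Members, lists and tests were chosen with earlier results of these data known. Probes were not placed against exon annotation, so whether a probe lies in a UTR was not established. Only the probes of Bub1b and Bub1 are given with sequence.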

Additional observations from a re-analysis of the deposited data

Results flagged for a closer look

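Dixon's test at 95% asks whether the gap of 1 line to its nearest neighbour is a large part of the whole range. Among the 9 lines, 3 of the 30 genes had such a line. By chance alone about 1 in 20 groups of values would have one. The share of all genes with such a line was not counted. Whether 3 of 30 is more than these arrays show for other genes was therefore not tested. Top2a read 2.17 in tail-tip line 2, and the nearest line read 2.91. Ccnb2 read 1.64 in oxysterol line 1, and the nearest line read 0.77. Gins1 read 0.24 in oxysterol line 1, with the nearest line at 1.71; on the second Gins1 probe that line was also the lowest, at -0.31. None of these genes passed against MEF.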

How the results depend on the processing

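For the lines against MEF no gene of the 30 was lower under any alternative. The count of higher genes was 7 in the reported fit (2079 of all 25399 genes). It was 13 with normexp (1843 of all), 11 with quantile normalization (1643) and 14 with an intensity trend (2319). It was 12 for probes well above background on at least 6 arrays (2366 of 20180) and 3 with slide as a fixed block (1325 of 25399). Within slide 1 it was 0, where 1 residual degree of freedom was left and no gene at all passed. Leaving out each line in turn gave 5 to 12, with 12 without oxysterol line 1 (2493 of all genes). Against the spheres the count was 2 (1487 of all 25386 genes). It became 1 with no filter on dim probes (1397 of 27640) and with the mean of all probes (1296 of 25391). It was also 1 without tail-tip line 2 and purmorphamine line 2 together (1246 of all genes), a choice made after seeing the data. The intensity trend gave 7 (1746 of all). The slide block (1115 of all), the fit within slide 3 (681) and the 8-group model (1128) gave 0. Leaving out each line gave 1 to 2. The median of 0.38 became 0.57 with normexp and 0.69 with the slide block or within slide 3. The clone number was also used as a replicate block, though the numbers do not pair the samples. It gave 5 against MEF (1896 of all genes) and 1 against the spheres (1359). With slide as a block the medians were 0.32 for oxysterol against purmorphamine and -0.52 for tail-tip against oxysterol; leaving out each line gave -0.14 to 0.32 and -0.46 to 0.031. For ES against MEF 13 genes were higher at 3-fold. There 1 was lower with normexp (15.7% of all genes) and 1 with the percentile over probes detected on all arrays (21.3% of all). The median was 1.73 with the mean of all probes. For the spheres against MEF 4 were higher and 0 lower at 3-fold. With the mean of all probes 11 of the 30 were higher (34.0% of all genes), with a median of 0.86. For the spheres against ES 3 were lower at 3-fold, and 1 was higher with the mean of all probes (27.5% of all). No share of all genes is given at 3-fold, so the 3-fold counts cannot be set against one. The 9 calls on single genes kept their sign in all 198 refits and passed in 149. The causes were not tested. Single MEF, ES and sphere arrays, saturation of Mcm4 and Rrm2 and dim spots of Ttk and Cdc45 limit the precision.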
